A study of Homo sapiens with 4 samples.

Results

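The regions of open chromatin at 6 genes of neurotrophin signalling were followed in A375, an established cell line from a human melanoma. The genes were the receptors NGFR, NTRK2, NTRK3 and SORT1 and the ligands BDNF and NTF3. A region was included where it overlapped the gene's RefSeq span on GRCh38 extended by 10 kb on both sides, and 72 of the 125986 regions in the authors' deposited table met this rule. They were 23 at NTRK2, 29 at NTRK3, 7 at SORT1, 6 at BDNF, 4 at NGFR and 3 at NTF3. ATAC-seq tags accessible DNA with the transposase Tn5, which cuts where chromatin is open. Cells grown in DMEM with serum were given octanoate (1 mM), which is a fatty acid of medium chain length, or isopropanol as its vehicle, and both groups were treated for 48 h. Each group has 2 libraries, so 4 were made. The labels do not say whether the 2 libraries of a group came from separate cultures, so the p-values measure the spread between these libraries, which may be technical. All libraries came from this 1 line, and the table holds no value for a single library.

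Neurotrophins are secreted growth factors that are made as larger precursors and are best known for keeping neurons alive. Trk receptors are receptor tyrosine kinases: NTRK2 encodes TrkB, the receptor of BDNF, and NTRK3 encodes TrkC, the main receptor of neurotrophin-3, the product of NTF3. NGFR encodes p75, a receptor of the tumour necrosis factor receptor family that binds all neurotrophins, and SORT1 encodes sortilin, which binds the precursors together with p75. In melanoma, NGFR is widely used as a marker of neural crest-like cells.

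The depth behind single regions was estimated in part. Low means in the authors' deposited table, multiplied by the 4 libraries, stepped by fixed amounts of 0.413 to 0.512 normalized reads. Each step was taken as the worth of 1 read in 1 library, and no step was assigned to a sample. Only steps within a preset span of sizes were sought, so the read counts given below are estimates. At these steps the strongest of the 72 regions, at BDNF, rested on 814 to 1007 reads over the 4 libraries. An adjusted p-value by the authors exists only for the 11185 regions whose mean reached 63.8 normalized reads, here called tested regions. In the authors' deposited table the starts of 5 of 8 melanocytic markers lay within 1 kb of a region, with none at MLANA, TYR or TYRP1, and the same held for 5 of 5 markers of undifferentiated melanoma, NGFR among them. For other cell types, regions were found at 0 of 2 keratinocyte and 0 of 2 endothelial markers, 1 of 3 leukocyte markers (CD3E) and 2 of 2 neuronal markers (RBFOX3 and SNAP25). Where no start was listed for a marker, either end of the gene was used.

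Annotated starts were compared with the open regions first, because they show which parts of each gene were accessible in these cells. RefSeq (GRCh38.p14) gave 14 start windows for 5 of the 6 genes, each running from 250 bases before to 50 after a start, and 9 of the 14 overlapped a region. The table of windows had no entry for NGFR. The 6 windows printed here are those under the strongest start regions of each gene, with the weak one at NTF3 for contrast. They are written 5' to 3' on the gene's strand. Capitals mark the GC box GGGCGG, the core letters bound by SP1-type factors, or its reverse complement CCGCCC.
NTRK2 start, chr9:84669783-84670082 (plus strand): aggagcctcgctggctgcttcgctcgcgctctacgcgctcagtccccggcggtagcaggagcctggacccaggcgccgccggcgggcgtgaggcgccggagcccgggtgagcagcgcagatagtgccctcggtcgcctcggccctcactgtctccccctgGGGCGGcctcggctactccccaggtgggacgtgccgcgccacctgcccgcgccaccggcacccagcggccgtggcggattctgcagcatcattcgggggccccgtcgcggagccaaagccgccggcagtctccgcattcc
NTRK3 start, chr15:88256690-88256989 (minus strand): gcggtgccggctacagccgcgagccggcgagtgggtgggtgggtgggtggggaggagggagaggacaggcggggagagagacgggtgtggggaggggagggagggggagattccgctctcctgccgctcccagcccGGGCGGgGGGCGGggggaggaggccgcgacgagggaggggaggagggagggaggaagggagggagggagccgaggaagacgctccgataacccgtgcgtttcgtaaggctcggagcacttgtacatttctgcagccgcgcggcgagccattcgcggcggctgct
SORT1 upstream start, chr1:109397869-109398168 (minus strand): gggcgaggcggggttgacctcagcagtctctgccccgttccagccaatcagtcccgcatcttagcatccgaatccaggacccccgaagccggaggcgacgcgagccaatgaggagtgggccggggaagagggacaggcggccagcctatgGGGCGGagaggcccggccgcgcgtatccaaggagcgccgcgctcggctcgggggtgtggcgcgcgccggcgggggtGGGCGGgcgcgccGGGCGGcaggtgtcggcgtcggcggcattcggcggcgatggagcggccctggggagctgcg
BDNF internal start 1, chr11:27719517-27719816 (minus strand): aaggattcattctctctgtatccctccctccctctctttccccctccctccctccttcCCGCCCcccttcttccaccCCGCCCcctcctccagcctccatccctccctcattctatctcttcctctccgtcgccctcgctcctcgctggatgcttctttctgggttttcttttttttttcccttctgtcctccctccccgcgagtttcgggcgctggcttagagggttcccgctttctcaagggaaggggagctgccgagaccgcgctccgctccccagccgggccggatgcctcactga
BDNF internal start 2, chr11:27701572-27701871 (minus strand): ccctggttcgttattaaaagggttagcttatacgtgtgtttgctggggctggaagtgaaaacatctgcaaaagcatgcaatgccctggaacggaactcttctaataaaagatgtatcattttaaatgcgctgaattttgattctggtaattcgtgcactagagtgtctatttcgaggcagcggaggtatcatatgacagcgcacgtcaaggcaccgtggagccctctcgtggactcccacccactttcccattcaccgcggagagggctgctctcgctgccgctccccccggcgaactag
NTF3 upstream start, chr12:5431858-5432157 (plus strand): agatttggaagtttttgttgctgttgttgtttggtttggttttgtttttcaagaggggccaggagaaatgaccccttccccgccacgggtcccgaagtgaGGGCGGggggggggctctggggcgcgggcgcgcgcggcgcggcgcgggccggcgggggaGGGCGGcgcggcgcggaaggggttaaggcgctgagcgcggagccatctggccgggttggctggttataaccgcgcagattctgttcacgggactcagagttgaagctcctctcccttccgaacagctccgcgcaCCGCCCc

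The NTRK2, NTRK3 and SORT1 windows lay wholly within a region, all 300 bases of each. The NTF3 window was covered for 107 bases, and the BDNF windows for 86 bases (internal start 1) and 283 bases (internal start 2). Their GC contents were 74.7% (NTRK2), 72.0% (NTRK3), 74.7% (SORT1), 61.7% and 50.7% (BDNF) and 66.0% (NTF3), against a median of 58.7% over the 35116 start windows in RefSeq. The GC box was found 1 time in the NTRK2 window, 2 times in the NTRK3 window and 3 times each in the SORT1 and NTF3 windows. BDNF internal start 1 held it 2 times and internal start 2 held it 0 times. On both strands, 45.0% of all start windows held a GC box. The letters TGACGTCA (the cAMP response element) and TGANTCA (AP-1) were in 0 of the 14 windows of these genes, against 1.85% and 7.71% of all windows. The E-box letters CANNTG stood in each printed window but BDNF internal start 1, and 68.7% of all windows held them. In the printed windows the GC boxes and E-boxes did not overlap each other. A match is a description of the letters alone.

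No region at the 6 genes passed the threshold used here, an adjusted p under 0.05 by the authors' test, after octanoate. Of the 72 regions 6 were tested, and 0 of these 6 had an adjusted p under 0.05 in the authors' deposited table (DESeq2, Benjamini-Hochberg), where 1.02% of all tested regions did. At an unadjusted p under 0.05 the count in the authors' deposited table was again 0 of 6, where 14.9% of tested regions passed. Over all 72 regions, including the 66 under the authors' filter on the mean, 1 had an unadjusted p under 0.05 in the authors' deposited table, against 3.76% of all nuclear regions (3.58% higher and 0.179% lower). The median log2 fold change (octanoate over vehicle) of the 72 regions in the authors' deposited table was 0.14, with quartiles of -0.19 and 0.37, and without NTRK3 it was 0.034 over 43 regions. All 125985 nuclear regions had a median of 0.23 and quartiles of -0.04 and 0.52 in the authors' deposited table. Values above 0 were found at 46 of the 72 regions (63.9%), against 72.1% of nuclear regions. With so few tested regions these shares describe the libraries and carry no test. Bulk libraries cannot tell apart a site open in fewer cells from a site less open in each cell.

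**Figure D1:**
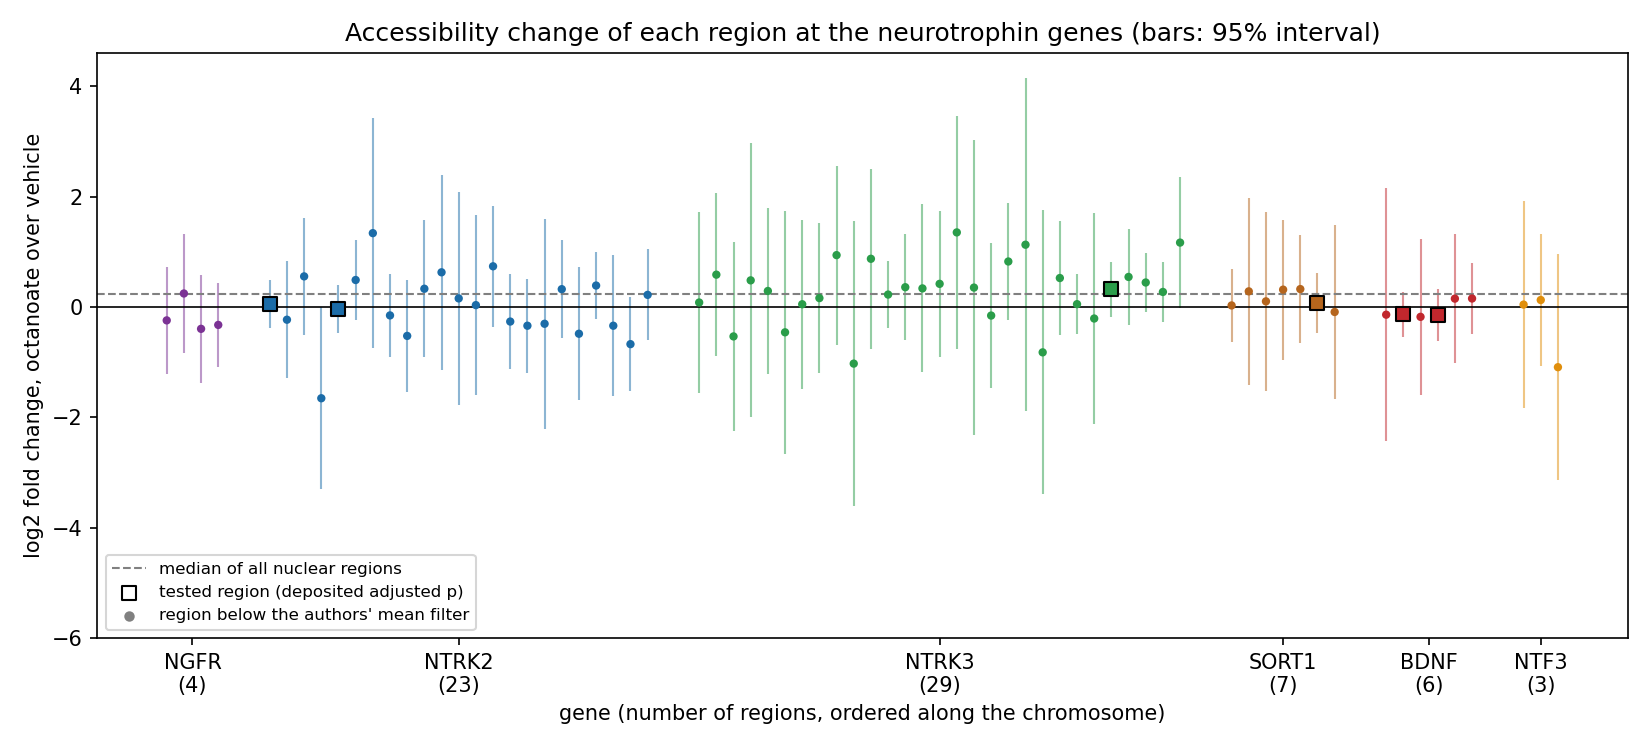
Log2 fold change (octanoate over vehicle) of each of the 72 regions, in chromosome order within each gene, with bars for the 95% interval from the authors' standard error. Squares are the 6 tested regions, circles those under the mean filter, and the dashed line is the median of all nuclear regions, 0.23; 71 of the 72 intervals include 0.

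The 72 regions were like the rest of the table in strength. Their median was 12.4 normalized reads, with quartiles of 6.66 and 23.5, in the authors' deposited table, and that of all nuclear regions was 12.2, with quartiles of 6.80 and 26.3. Tested regions made up 8.33% of the 72 and 8.88% of nuclear regions. The 9 regions that overlapped a start window had a median of 39.7 normalized reads (5.23 to 104), and the other 63 had 10.3 (2.60 to 89.4). Median log2 fold changes in the authors' deposited table were 0.07 for the 9 and 0.16 for the 63, and this difference was not tested. The 63 include all regions of NGFR, which had no window listed, and the NTRK2 region over the first bases of its gene span. The split is thus by listed windows and not by all gene starts.

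**Figure D2:**
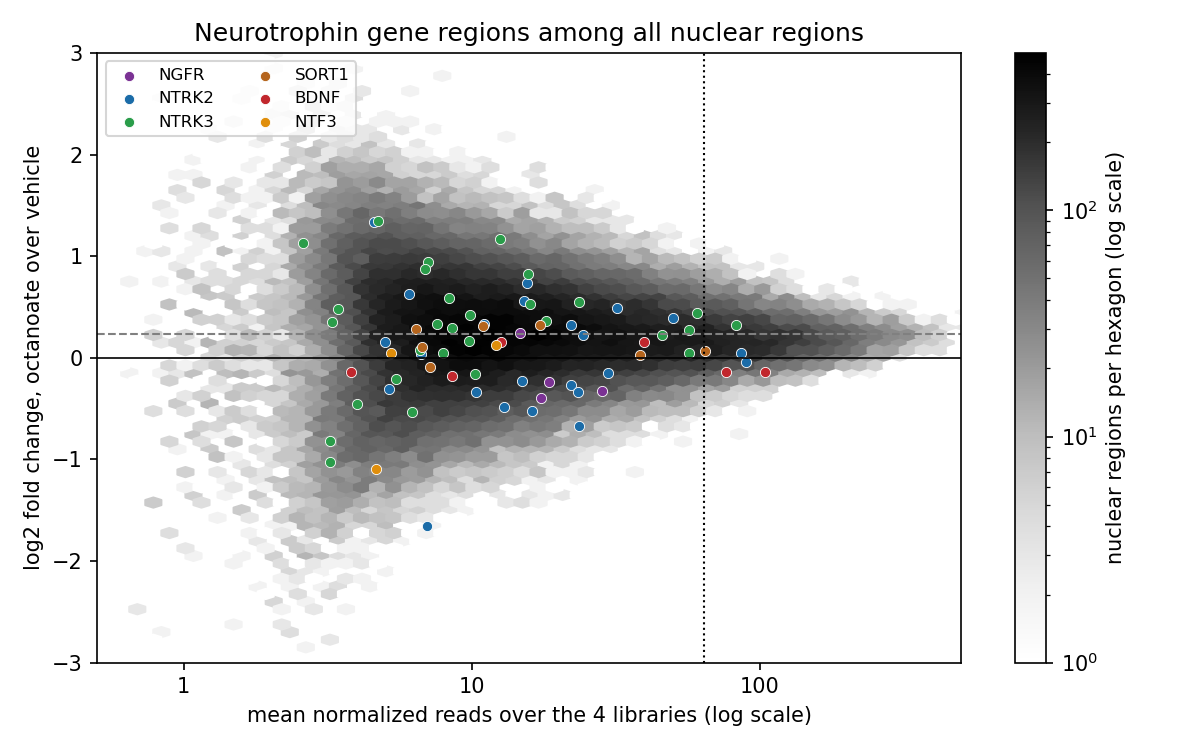
Mean normalized reads (log axis) against log2 fold change for all nuclear regions (grey hexagons, darker for more regions) and for the 72 regions at the 6 genes (coloured points). The dotted line is the lowest tested mean, 63.8; the coloured points lie within the grey cloud, and 6 lie to the right of the line.

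NGFR (gene 4804, chr17:49495293-49515008) is the p75 receptor gene. Its 4 regions had means of 14.7 to 28.4 normalized reads, and none was tested. Log2 fold changes in the authors' deposited table were -0.24 (standard error 0.50) at chr17:49495051-49495581 and 0.24 (standard error 0.55) at chr17:49496416-49496766. They were -0.40 (standard error 0.50) at chr17:49508343-49508924 and -0.32 (standard error 0.39) at chr17:49515246-49515790. The last pair also lies within the span of the antisense gene NGFR-AS1, and ATAC-seq does not assign a site to a strand. The strongest of the 4, at 28.4 normalized reads (222 to 274 reads), had implied group means of 31.5 with vehicle and 25.2 with octanoate. Implied group means follow from the deposited mean and fold change of 2 equal groups and have no spread of their own. Thus 3 of 4 NGFR regions were below 0 and 1 above, with a median of -0.28, and every 95% interval at this gene included 0. The widest bounds, from -1.38 to 1.33 on the log2 scale, leave room for a change of more than a doubling or halving that these libraries could not show.

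NTRK2 (gene 4915, chr9:84668522-85027054), the TrkB gene, held 23 regions over a window of 379 kb, 15 of them at or above the median mean of the table, 12.2 normalized reads. The strongest, chr9:84710698-84712505, lies inside the gene 42.3 kb from the outermost start and had 89.4 normalized reads. Another annotated start, at chr9:84701605, lies nearer to it. Implied group means at this strongest region were 90.7 with vehicle and 88.2 with octanoate, so the groups were nearly level. In the authors' deposited table its log2 fold change was -0.04 (standard error 0.22, adjusted p 0.953), a fold of 0.973 with a 95% interval of 0.722 to 1.31. A nearly equal region, chr9:84667485-84668803, covers the first bases of the gene span but no start window, and had 86.4 normalized reads. Its implied means were 84.9 and 87.9, and in the authors' deposited table its log2 fold change was 0.05 (standard error 0.22, adjusted p 0.940). At this pair the intervals reached up to 1.40-fold and down to 0.722-fold, and they rest on the spread between these libraries alone. A log2 fold change of 0.78 would have been needed for an adjusted p under 0.05 at the standard error of chr9:84667485-84668803.

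The start of NTRK2 printed above lies in a weaker region, chr9:84669633-84670085, with 14.9 normalized reads and a log2 fold change of -0.23 (standard error 0.54) in the authors' deposited table. Fold changes of both signs occurred along the gene. Among regions at or above the median mean, the highest value in the authors' deposited table was a log2 fold change of 0.74 (standard error 0.56) at chr9:84939919-84940733 and the lowest -0.67 (standard error 0.44) at chr9:84995929-84996667. Of the 23 regions 12 were above 0 and 11 below, with a median of 0.03. Outside the naming rule, which takes single p-values from tested regions alone, 1 weak region was chosen once its values had been seen. It is chr9:84709311-84709826, the region of the 72 with an unadjusted p under 0.05, and it lies next to the strongest NTRK2 region. Its mean was 6.99 normalized reads, or 55 to 67 reads in all, with implied means of 10.6 with vehicle and 3.37 with octanoate. Its log2 fold change was -1.65 (standard error 0.84, unadjusted p 0.0493) in the authors' deposited table, and no adjusted p covers it. The share of nuclear regions that were lower at such a p was 0.179%.

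NTRK3 (gene 4916, chr15:87859751-88256739), the TrkC gene, held 29 regions over 417 kb, but 10 of them reached the table's median mean. All 10 of these had log2 fold changes above 0 in the authors' deposited table, from 0.05 to 1.17, where 77.0% of nuclear regions at or above the median mean were above 0. Of all 29 regions 23 were above 0, beside 72.1% of nuclear regions. The gene's median was 0.34, with a range of -1.03 to 1.35. The strongest region, chr15:88238527-88239598, lies 17.7 kb inside the start, with 82.7 normalized reads and implied means of 73.6 with vehicle and 91.9 with octanoate. Its log2 fold change was 0.32 (standard error 0.25, adjusted p 0.571) in the authors' deposited table, a fold of 1.25 with an interval of 0.887 to 1.76. Relative to the median of the tested regions, 0.19, that value was 0.13.

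The start region of NTRK3, chr15:88255592-88257597, covers the printed window and also lies within the span of NTRK3-AS1. It had 56.6 normalized reads, implied means of 51.3 and 62.0, and a log2 fold change of 0.27 (standard error 0.28) in the authors' deposited table. Also chosen outside the rule once its values had been seen, the second strongest region, chr15:88246468-88247270, had 60.5 normalized reads, implied means of 51.3 and 69.7, and a log2 fold change of 0.44 (standard error 0.27, unadjusted p 0.106) in the authors' deposited table. The highest value among the 10 stronger regions was 1.17 (standard error 0.61, unadjusted p 0.0541) at chr15:88262014-88262501, upstream of the start, on a mean of 12.6 normalized reads. The lowest was 0.05 (standard error 0.28) at chr15:88202242-88203599. Within 20 kb of the start, a distance chosen after the values were seen, NTRK3 had 5 regions with 46.5% of the gene's summed signal. NTRK2 had 2 regions and 19.0% of its signal within the same distance of its outermost start. NTRK2 has 4 start windows, and its start at chr9:84701605, nearer to its strongest region, was not used for this share. The shares of NTRK2 and NTRK3 are therefore not like for like. The 5 NTRK3 regions ran from 0.27 to 1.17 in the authors' deposited table, and each interval included 0.

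**Figure D3:**
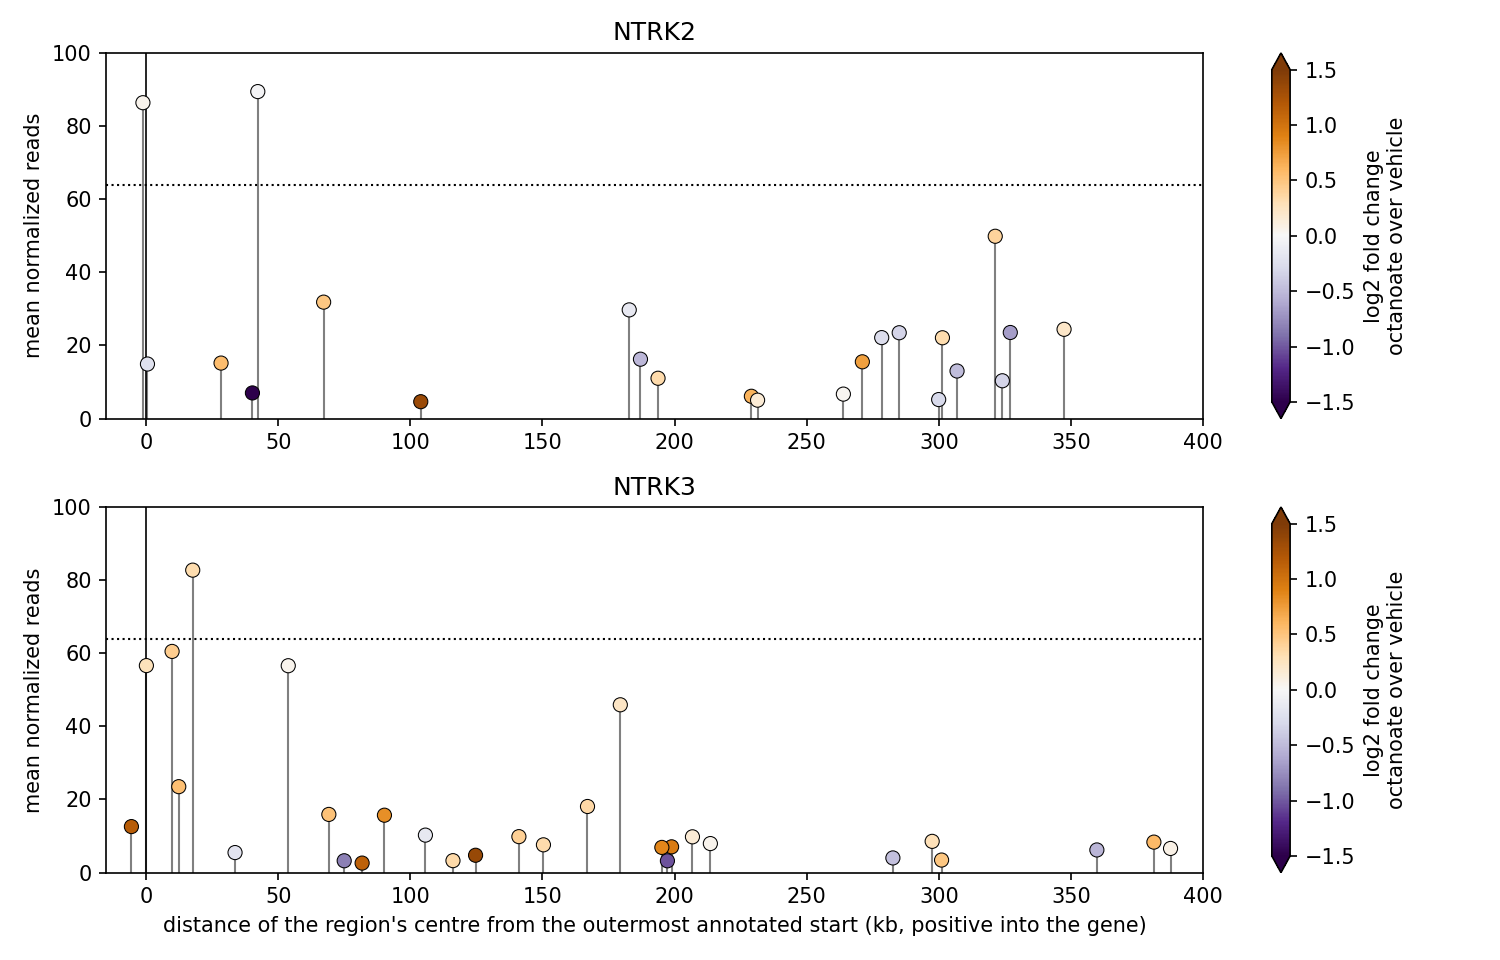
Mean normalized reads of each region at NTRK2 (top) and NTRK3 (bottom) against its distance in kb from the outermost annotated start (vertical line), coloured by log2 fold change, with the lowest tested mean dotted. NTRK3 has 5 regions within 20 kb of its start, all above 0, and the 2 strongest NTRK2 regions are nearly white, at 0.05 and -0.04.

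SORT1 (gene 6272, chr1:109309575-109397918), the sortilin gene, had 7 regions, 4 of them in its span. The start region chr1:109397375-109398419, which holds the printed window, was the strongest at 64.7 normalized reads (506 to 626 reads). Implied group means were 63.1 with vehicle and 66.3 with octanoate. Its log2 fold change was 0.07 (standard error 0.28, adjusted p 0.931) in the authors' deposited table, a fold of 1.05 with an interval of 0.718 to 1.54. A weaker region at the second annotated start, chr1:109392918-109393345, had 17.3 normalized reads and a log2 fold change of 0.32 (standard error 0.50) in the authors' deposited table. The second strongest region of the window, chr1:109299611-109300222, lies in the neighbouring gene MYBPHL rather than in SORT1. It had 38.4 normalized reads and a log2 fold change of 0.03 (standard error 0.34) in the authors' deposited table. Another region of this window, with 7.17 normalized reads, overlaps PSMA5, a proteasome subunit gene. Over the 7 regions the range was -0.09 to 0.32 and the median 0.10, the narrowest range of the 4 receptor genes.

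BDNF (gene 627, chr11:27654893-27722030) is transcribed from several starts, and 4 of its 6 regions overlapped a start window. The strongest region at any of the 6 genes was chr11:27698717-27701854, 3138 bp wide, over internal start 2, with 104 normalized reads. Implied means were 109 with vehicle and 99.3 with octanoate. In the authors' deposited table its log2 fold change was -0.14 (standard error 0.21, adjusted p 0.794), a fold of 0.910 with an interval of 0.687 to 1.20. The region over internal start 1, chr11:27717389-27719602, had 76.1 normalized reads and implied means of 79.8 and 72.4. In the authors' deposited table its log2 fold change was -0.14 as well (standard error 0.24, adjusted p 0.820), with an interval of 0.653- to 1.26-fold. Both values lay below the tested median, by 0.32 and 0.33 on the log2 scale; tested against that median, their unadjusted p-values were 0.118 and 0.174 and both adjusted p-values were 1. The pair near the upstream starts had values above 0: 0.15 (standard error 0.60) at chr11:27720383-27720858 and 0.15 (standard error 0.33) at chr11:27722066-27723307 in the authors' deposited table, with means of 12.6 and 39.7 normalized reads. BDNF thus had 2 regions above 0 and 4 below, with a median of -0.14, and the intervals of all 6 included 0.

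NTF3 (gene 4908, chr12:5430332-5495299), the neurotrophin-3 gene, was the least accessible of the 6, with 22.1 normalized reads summed over 3 regions. The start region chr12:5432051-5432270 had 5.23 normalized reads and a log2 fold change of 0.04 (standard error 0.95) in the authors' deposited table. At chr12:5442348-5442811, 10.5 kb inside the gene, there were 12.2 normalized reads and a log2 fold change of 0.13 (standard error 0.61) in the authors' deposited table. The third region, chr12:5480303-5480539, had 4.67 normalized reads and a log2 fold change of -1.09 (standard error 1.04) in the authors' deposited table. At the Wald statistic of the weakest region past the threshold, 3.48, log2 fold changes of 2.11 to 3.63 would have been needed at these 3 regions. The second annotated start of NTF3 had no region within 13.5 kb, the nearest being 13593 bases away.

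**Figure D4:**
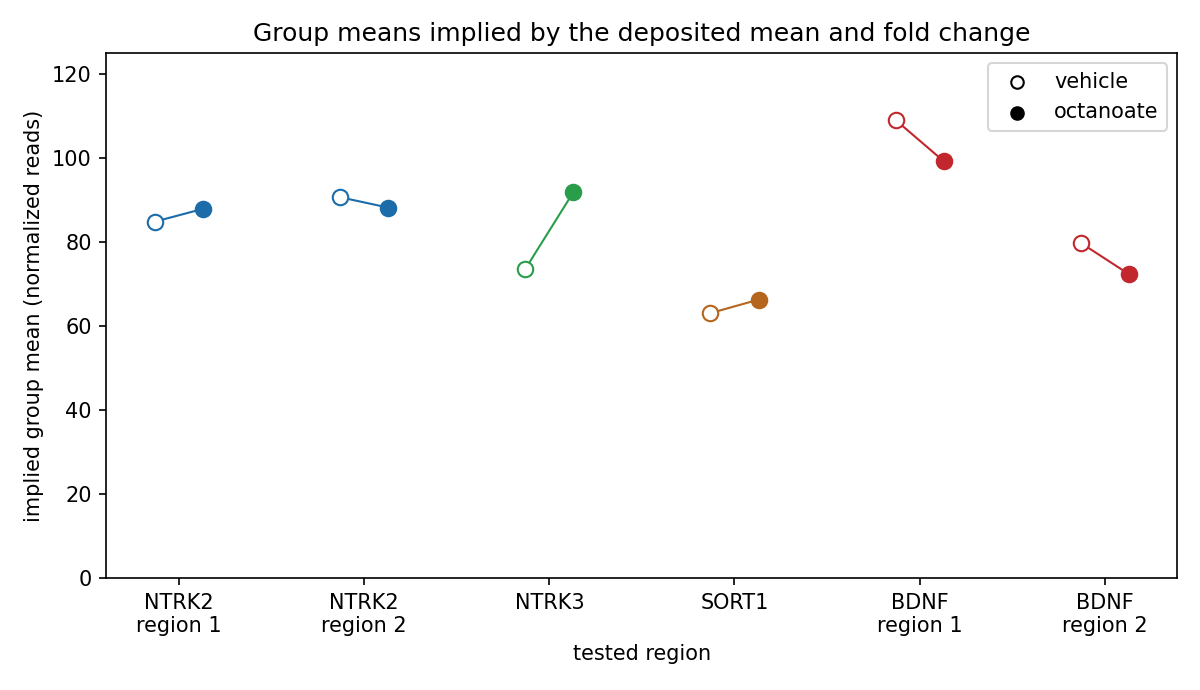
Group means in normalized reads implied by the deposited mean and log2 fold change for the 6 tested regions, with vehicle as open and octanoate as filled circles. No error bars are drawn, since single libraries have no values in the table; the widest gap is at NTRK3 (73.6 and 91.9), and both BDNF regions are lower with octanoate (109 and 99.3, 79.8 and 72.4).

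Among the 6 tested regions 3 were above and 3 below 0, where 14.3% of all tested regions were below 0 in the authors' deposited table. Summed over each window, the implied signals with vehicle and octanoate were 84.9 and 73.2 normalized reads at NGFR, 529 and 538 at NTRK2, 451 and 563 at NTRK3 and 146 and 157 at SORT1. They were 252 and 238 at BDNF and 23.1 and 21.0 at NTF3. The log2 ratios of these sums ran from -0.21 at NGFR to 0.32 at NTRK3, and that of all nuclear regions was 0.21. Ordered by the median log2 fold change of their regions, the genes were NGFR (-0.28), BDNF (-0.14), NTRK2 (0.03), NTF3 (0.04), SORT1 (0.10) and NTRK3 (0.34). Over the 11203 protein-coding genes with at least 3 regions, this median had quartiles of 0.08 and 0.33 and ran from -0.12 to 0.57 between the 5th and 95th percentiles. NGFR and BDNF, whose medians rest on 4 and 6 regions, lay under this range and NTRK3 just above its upper quartile. The BDNF median was 0.0078 over its 4 regions at or above the table's median mean, and that of NGFR was -0.13 over the 7 regions of a 50 kb window. The middle of the order also moved: at or above the median mean NTRK2 had -0.040 and NTF3 0.13 (1 region), NTRK2 had -0.0028 in a 50 kb window, and SORT1 had 0.21 in its gene span alone. The regions of each gene overlapped in range with those of its neighbours in this order, from -0.40 to 0.24 at NGFR, -0.18 to 0.15 at BDNF, -1.65 to 1.34 at NTRK2, -1.09 to 0.13 at NTF3, -0.09 to 0.32 at SORT1 and -1.03 to 1.35 at NTRK3. Differences between the genes were not tested.

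**Figure D5:**
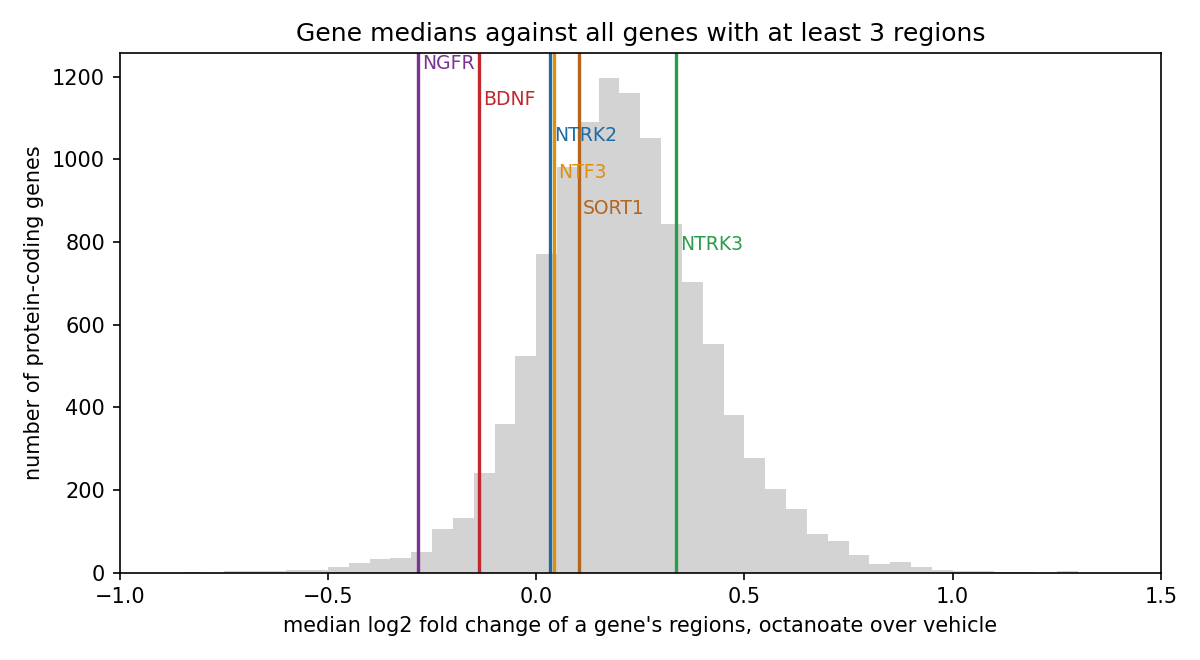
Number of protein-coding genes by the median log2 fold change of their regions, for the 11203 genes with at least 3 regions (grey), with lines for the 6 neurotrophin genes. NGFR (-0.28) and BDNF (-0.14) lie in the lower tail and NTRK3 (0.34) on the upper shoulder.

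At the edge of the 10 kb windows, the outermost regions inside were 9.35 kb from SORT1 (log2 fold change 0.03, standard error 0.34) and 5.28 kb from NTRK3 (1.17, standard error 0.61) in the authors' deposited table. The nearest regions outside lay 14.6 kb from SORT1 (-0.17, standard error 0.45), 15.6 kb from NTRK2 (-0.19, standard error 0.74) and 17.8 kb from NTRK3 (0.28, standard error 0.39) in the authors' deposited table. Those of the other genes were 21.4 to 38.7 kb away. Whether a region lies in an exon, an intron or a UTR was not analysed here.

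Other genes of the pathway were taken as a list of 37, among them the sortilin family, enzymes that process the precursors, adaptors downstream of Trk receptors and partners of p75. They had 326 regions, 34 of them tested at 23 genes, and 0 passed the threshold in the authors' deposited table (DESeq2). At an unadjusted p under 0.05, 5 of the 34 (14.7%) passed in the authors' deposited table, all 5 higher, beside the 14.9% of all tested regions. Over all 326 regions the count was 18 in the authors' deposited table, 17 of them higher and 1 lower. That is a larger share than the 3.76% of nuclear regions (4732 of 125985), a difference that was not tested. The list's regions were also stronger, with a median of 15.5 normalized reads against 12.2, and 10.4% of them were tested against 8.88%. Among the tested regions, the smallest p-values belonged to SHC4, an adaptor of receptor tyrosine kinases, SORCS2, a sortilin-family partner of p75, and FURIN, a protease that cleaves the precursors. At SHC4 (chr15:48928863-48930165) the log2 fold change was 0.56 (standard error 0.20, adjusted p 0.118) in the authors' deposited table. At SORCS2 (chr4:7649740-7650981) it was 0.65 (standard error 0.26, adjusted p 0.172), and at FURIN (chr15:90869496-90870148) 0.61 (standard error 0.25, adjusted p 0.191), in the authors' deposited table. The gene NTF4, which encodes another ligand of TrkB, had 3 regions, none of them tested, and in the authors' deposited table their log2 fold changes had a median of 0.92. The list's median of 0.21 lay beside 0.23 for all nuclear regions in the authors' deposited table.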

How the data were processed

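ATAC-seq of 4 A375 libraries, 2 per group by their titles, was available as the authors' 1 deposited table of octanoate against vehicle, with 0 columns per library. Per the submitters' processing notes the tools included Bowtie2, MACS2, featureCounts, DESeq2 and bedtools 2.29.1 and the build was hg38; roles, scaling, merging of regions and any Tn5 shift are not given in the sources used here. Per the file headers, the deposited signal is a mean over the libraries of normalized read counts, and the log2 fold change comes with a standard error and a Wald statistic, both held as scores. The deposited p-value is two-sided. The authors' adjusted p-value equalled Benjamini-Hochberg adjustment over the 11185 tested regions and is listed as 1 in the other 114801, which were treated as not tested.

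From these values, 95% intervals (normal), group means implied by 2 equal groups, medians, centred p-values and motif matches were computed in Python 3.11.15 with scipy 1.17.1, and the calculations were checked on simulated data. Starts were counted from 1. Gene spans came from the RefSeq table of GRCh38.p14. Regions named per gene were the strongest, those at a start window or the start of the span, tested ones with an unadjusted p under 0.05 and the extreme fold changes at or above the median mean, with all regions given at NGFR and NTF3; for the pathway list, the 3 smallest p-values. NTF4, MMP9 and the medians of the sortilin family genes were given outside this rule. The 6 genes and the lists were chosen with earlier results of these data known. Some single genes of the lists are not reported here. Alternatives varied the window, centring, threshold, adjustment, filter and genes. Depth per labelled library is unknown, so no counting intervals are given.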

Additional observations from a re-analysis of the deposited data

How the results depend on the processing

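No region of the 6 genes passed the threshold under the alternatives that could have added one: 50 kb windows (94 regions, 9 tested), centring on the tested or on the nuclear median, an adjusted p under 0.1, and adjustment over all regions, which also covers those under the authors' filter. The remaining alternatives, a narrower window, a minimum mean, an adjusted p under 0.01 and leaving out genes or regions, could by construction only keep a count of 0. The pathway list stayed at 0 in the gene span alone, centred on the tested median, with a minimum mean, at an adjusted p under 0.1 or 0.01 and adjusted over all regions; other alternatives were not run for it. Medians moved by over 1.5 times or changed sign as follows. Subtracting the median of the tested regions, 0.19, gave -0.048 for the 72 regions, -0.15 for NTRK2, -0.085 for SORT1, -0.14 for NTF3, -0.47 for NGFR, -0.32 for BDNF, 0.15 for NTRK3 and 0.027 for the pathway list, and subtracting the nuclear median gave -0.090 for the 72; these shifts follow from the subtraction. With 50 kb windows the medians were 0.075 for all 6 genes together, -0.0028 for NTRK2, -0.13 for NGFR and 0.011 for NTF3. In the gene span alone SORT1 had 0.21. Among regions at or above the median mean they were -0.040 for NTRK2, 0.0078 for BDNF and 0.13 for NTF3 (1 region). Without NTRK3 the median of all members went from 0.14 to 0.034, over 43 regions. Where no reason is given, the cause was not tested. No error of a median between replicates could be had.

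No paired analysis was possible because single libraries have no values in the deposited table. Leaving out a library, other size factors and count tests were not run either, for want of such values.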

Other observations

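Values of the other sortilin family genes stand beside those of SORT1. In the authors' deposited table the median log2 fold change over 27 regions of SORCS2 was 0.58, above the 95th percentile of gene medians, 0.57. Of the 37 genes of the pathway list, NTF4 (0.92) and MMP9 (0.61) also lay above this percentile, and all the others lay below it. SORL1 (11 regions), SORCS3 (27) and SORCS1 (48) had medians of 0.35, 0.33 and 0.20 in the authors' deposited table, against 0.10 over the 7 regions of SORT1 and 0.21 over the 4 in its gene span. None of the tested regions of SORCS1, SORCS2 and SORCS3 passed an adjusted p of 0.05 (DESeq2), SORL1 had none tested, and the differences between these genes were not tested.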
